A study of Mus musculus with 32 samples.

Results

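The 41 genes described here act in DNA replication and the S phase of the cell cycle. They were chosen by name, with earlier results of these data known, out of 24454 gene IDs in the count table, and all 41 were found. RNA had been sequenced from 32 laser-captured regions of the mammary glands and lungs of female mice that carried MMTV-PyMT, R26-CBW and K8-CreERT2, in 3 normal, 5 hyperplasia, 8 adenoma, 9 carcinoma and 7 metastasis libraries. Every group shares all 3 alleles and an intraperitoneal dose of 5 mg tamoxifen at 5 weeks of age. Polyoma middle T is an oncogene that the MMTV promoter, active mainly in mammary epithelium, turns on in every animal, so the normal gland also came from tumour-bearing mice. CreERT2 under keratin 8 control switched on 1 of several fluorescent colours in keratin 8 cells. Tissue was taken when the largest permitted tumour size had been reached, and the age at that point is not in the labels. Sections were 7 µm thick. The labels give normal 28 and 30 as pools from several places and put normal 18 in a tumour core. Hyperplasia had 3 core regions, 1 border region and 1 region outside tumour, adenoma had 3 core, 3 border and 2 outside regions, carcinoma had 6 core and 3 border regions, and metastasis had 4 lung border and 3 lung centre regions. The design text gives n = 3 without saying of what, and ties no region to an animal. If it counts animals, groups of 5 to 9 regions hold regions of shared animals. Every p-value below treats regions as independent. It can be wrong for that reason, and too small where regions of a group share an animal.

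Before S phase, Cdc6 and its partners load the ring of Mcm2 to Mcm7 onto origins of replication, a step called licensing, and geminin (Gmnn) blocks a second round of loading. Cdc45 and the GINS complex turn the ring into an active helicase, primase and polymerase alpha start new strands, and the Pcna clamp holds the polymerases on DNA. Nucleotide enzymes supply the building blocks, histone chaperones rebuild chromatin behind the fork, and repair enzymes act on stalled forks. In resting mammary epithelium few cells are in S phase, and the RNA of many of these genes is known to rise in cycling cells under E2F transcription factors.

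Total counts per library ranged from 2688611 to 19585351 and detected genes from 10258 to 17667. A single gene ID took 5.20 to 78.9% of a library's counts. Hyperplasia 22, adenoma 51 and metastasis 42 stood apart with fewer than 11000 detected genes each, and they had no count for 16, 18 and 5 of the 41 genes, against 0 to 4 in each of the other libraries. Keratins 8 and 18, which define luminal epithelium, were present in every library, with a summed level of 399 to 2650 CPM. Markers of lung epithelium summed to 381 to 4432 CPM in metastasis libraries and to at most 53.6 CPM elsewhere. Levels below are CPM, counts scaled to TMM library sizes, and no library carries molecular identifiers.

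The promoters of 4 members are shown, chosen by their tests or by their motifs. Dtymk and Rrm2 had the smallest p of all members against normal gland, and Mcm5 and Mcm6 hold the E2F letters that many S phase promoters share. Each is the 300-base window that the RefSeq promoter table gives for GRCm38.p6, from 250 bases before the table's start site to 50 after, written 5′ to 3′ on the gene's strand. Capitals mark an E2F motif (TTTCGCGC, TTTCCCGC, TTTGGCGC or TTTGCCGC) or CCAAT, each on either strand, so that CCAAT on the opposite strand reads ATTGG. Dtymk lies at chr1:93801885-93802184 on the minus strand, Rrm2 at chr12:24708004-24708303 on the plus strand, Mcm5 at chr8:75109259-75109558 on the plus strand and Mcm6 at chr1:128359656-128359955 on the minus strand.
Dtymk: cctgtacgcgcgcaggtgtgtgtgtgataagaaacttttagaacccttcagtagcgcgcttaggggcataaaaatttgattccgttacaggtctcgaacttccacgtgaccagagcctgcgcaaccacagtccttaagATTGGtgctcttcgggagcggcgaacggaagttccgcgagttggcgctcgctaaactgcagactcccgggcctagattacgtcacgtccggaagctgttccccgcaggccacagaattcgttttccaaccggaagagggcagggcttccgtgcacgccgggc
Rrm2: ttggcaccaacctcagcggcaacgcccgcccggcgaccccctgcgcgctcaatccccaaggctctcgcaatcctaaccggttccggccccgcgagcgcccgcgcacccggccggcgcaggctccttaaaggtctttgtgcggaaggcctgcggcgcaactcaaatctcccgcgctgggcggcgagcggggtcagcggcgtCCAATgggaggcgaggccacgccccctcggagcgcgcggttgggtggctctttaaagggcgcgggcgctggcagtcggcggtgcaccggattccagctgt
Mcm5: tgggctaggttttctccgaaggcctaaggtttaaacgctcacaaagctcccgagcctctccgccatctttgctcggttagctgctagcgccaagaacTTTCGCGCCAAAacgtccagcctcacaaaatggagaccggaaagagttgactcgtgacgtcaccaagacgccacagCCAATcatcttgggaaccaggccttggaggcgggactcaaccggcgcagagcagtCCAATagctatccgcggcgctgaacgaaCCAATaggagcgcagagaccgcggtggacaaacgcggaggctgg
Mcm6: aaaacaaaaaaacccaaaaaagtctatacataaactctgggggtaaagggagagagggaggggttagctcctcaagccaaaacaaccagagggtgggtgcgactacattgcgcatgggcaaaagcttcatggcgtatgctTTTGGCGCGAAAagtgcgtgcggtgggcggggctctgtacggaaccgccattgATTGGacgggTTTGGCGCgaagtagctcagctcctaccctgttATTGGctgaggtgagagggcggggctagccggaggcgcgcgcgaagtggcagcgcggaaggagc

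Mcm5 holds 2 E2F motifs that overlap head to head and 3 CCAAT boxes, and Mcm6 holds 3 E2F motifs, of which 2 overlap, and 2 CCAAT boxes. Dtymk, Rrm2, Pcna and Mcm2 hold 1 CCAAT box each and none of the E2F letters in this window. Promoter windows were found for 33 of the 41 members, and the E2F letters stood in 13 of them (39.4%), namely in Mcm3, Mcm5, Mcm6, Mcm7, Cdc6, Pola1, Pold3, Clspn, Casp8ap2, Uhrf1, Hells, Cdca7 and Dtl. They stood in 2.6% of all 27025 genes with a window. CCAAT stood in 24 of the 33 (72.7%), against 41.1% of all genes, and both motifs in 9 (27.3%), against 1.12%. These are letter matches and not measured binding sites. Mcm4, Gmnn, Gins2, Rfc2, Tipin, Dscc1, Exo1 and Usp1 were named only.

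Per kilobase of exon, Dtymk was the most abundant member, at 27.1 CPM per kb over the 32 libraries. Dtymk encodes thymidylate kinase, which turns dTMP into dTDP. Pcna followed at 22.5, Gmnn at 21.01, Rrm2 at 20.0 and Fen1 at 18.7 CPM per kb. At the low end stood Mcm10 at 1.52, Dscc1 at 0.902 and Exo1 at 0.676 CPM per kb. No gene differed from its neighbour in this order by more than the within-stage SD of either gene on the log2 scale. By role, the most abundant members per kb were Gmnn for licensing and helicase, Pcna for fork and polymerase, Dtymk for nucleotide supply, Uhrf1 for chromatin assembly and histone supply, Usp1 for repair and Dtl for regulators.

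Detection differed among the genes. A total of 14 members had a count in all 32 libraries, among them Dtymk, Rrm2, Mcm5, Mcm6, Uhrf1 and Usp1. Dscc1, which helps load the clamp, was at 0 in 10 libraries, Cdc6 in 6, and Cdc45, Exo1 and E2f8 in 5 each. The pooled within-stage SD of log2(CPM + 1) was lowest for Dtymk (0.79), Slbp (1.07) and Rfc2 (1.20). It was highest for Brip1 (2.16), Rrm2 (2.09) and E2f8 (2.03), with a median of 1.63 over the members. Libraries of the same stage thus commonly differed several-fold in a single replication gene. Exons of Mcm7, Cdc45, Gins2, Rfc2, Fen1, Dscc1 and E2f8 overlap another gene, and Pcna, Tyms and Nasp have named pseudogenes. The sources used here do not say how the authors' counting treated strand and shared reads, so these 10 genes' values are less certain.

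**Figure D1:**
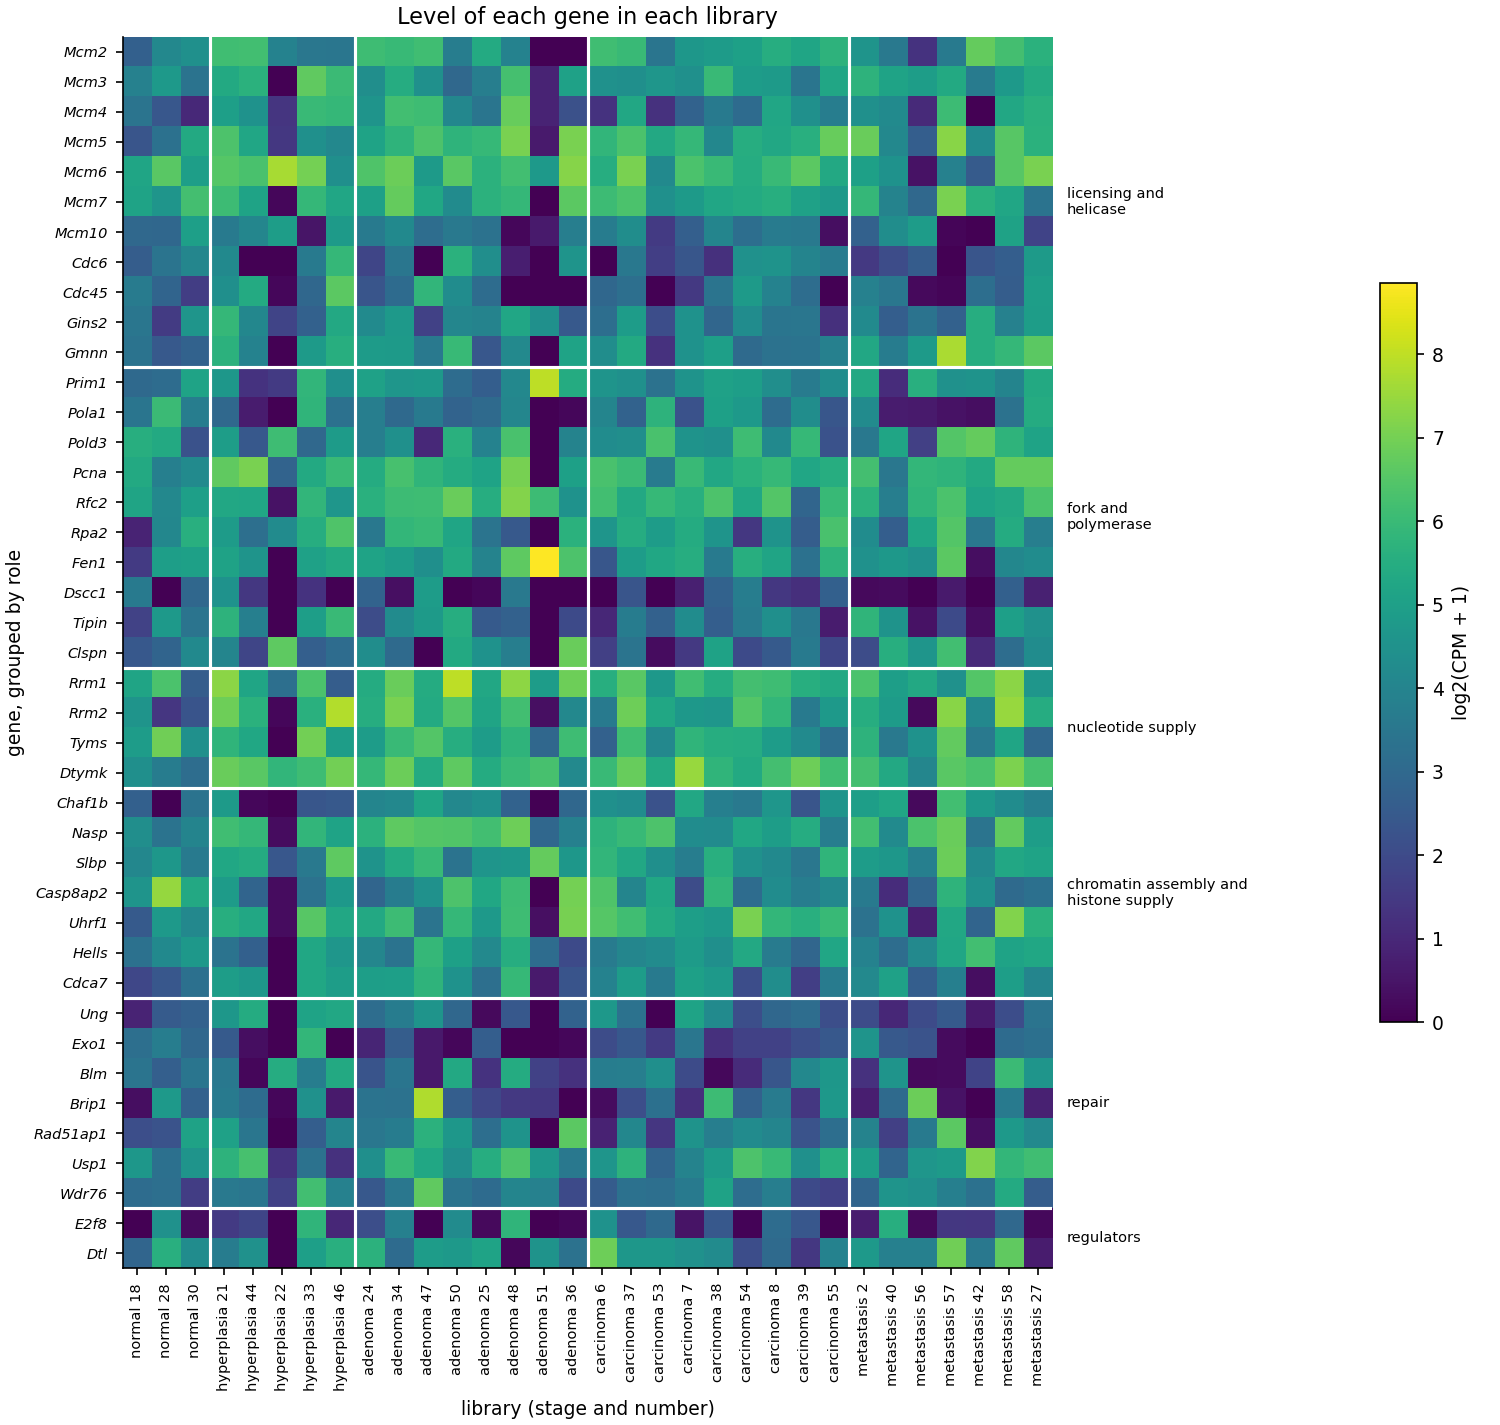
Level of each of the 41 genes (rows, grouped by role) in each of the 32 libraries (columns, by stage and number), as log2(CPM + 1). Dark cells are low and bright cells high. Hyperplasia 22 and adenoma 51 are dark over most rows, with 16 and 18 genes at 0, and Dtymk is above 0 in every column.

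Summed over the 41 genes, normal gland held 554, 1038 and 734 CPM in normal 18, 28 and 30, a mean of 775 ± 245 (SD, n = 3). Hyperplasia held 1746, 1169, 565, 1629 and 1616 CPM in hyperplasia 21, 44, 22, 33 and 46, a mean of 1345 ± 488 (n = 5). Adenoma ranged from 891 to 2000.4 CPM with a median of 1597 and a mean of 1451 ± 394 (n = 8). The tumour stages were not graded: carcinoma was lower again and the narrowest, at 819.8 to 1546 CPM with a median of 1135 and a mean of 1122 ± 212 (n = 9). Metastasis was the widest, at 705 to 2226 CPM with a median of 1205 and a mean of 1329 ± 593 (n = 7). Each tumour stage overlapped the normal range, hyperplasia only through hyperplasia 22 (565 CPM). Without the libraries under 11000 detected genes, the means were 1540 ± 254 CPM in hyperplasia (n = 4), 1497 ± 402 in adenoma (n = 7) and 1380 ± 632 in metastasis (n = 6). The normal mean depends on the scaling and was 1052 CPM with DESeq2 size factors.

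**Figure D2:**
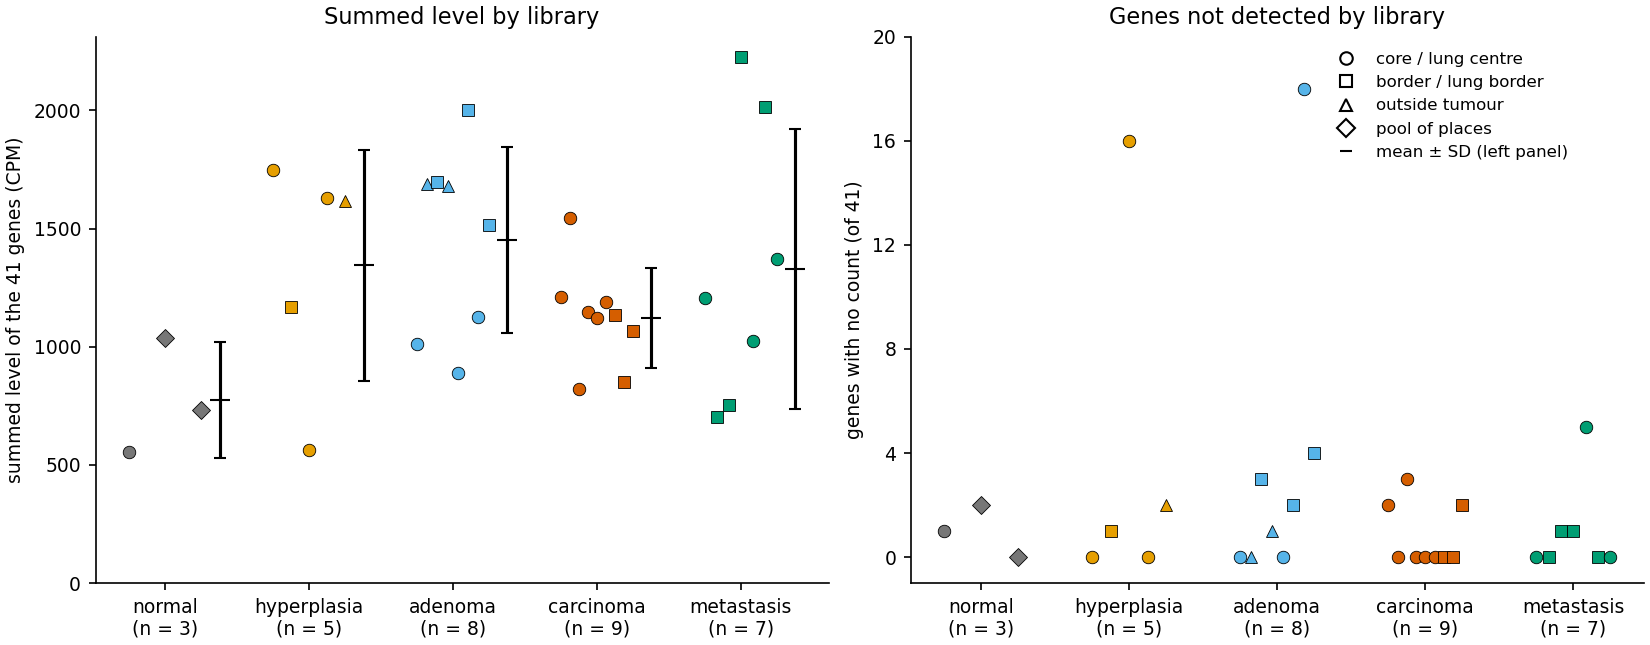
Left, summed level of the 41 genes (CPM) in each library by stage, with the mean and SD. Right, number of the 41 genes with no count in each library. Tumour libraries lie between 565 and 2226 CPM and normal libraries between 554 and 1038 CPM, and the libraries with 16 and 18 undetected genes are hyperplasia 22 and adenoma 51.

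Against normal gland, the 4 tumour stages together showed 1 called member, Dtymk, which rose, and 35 of the 41 members had a log2 change above 0. Of all 19907 genes tested, 4.41% passed in either direction, 0.0754% as higher, and 50.5% had a log2 change above 0. An unadjusted p under 0.05 was found for 3 members, against 15.0% of all genes, so this share is no larger than the background. The median log2 change of the members was 0.84, against 0.02 over all genes. With DESeq2 size factors the median of all genes moved to -0.37, the members' median to 0.34, and 25 members stayed above 0. Higher levels from more S phase cells and from more of this RNA per cell cannot be told apart in captured regions.

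Dtymk is the gene this comparison turns on. It had 20.0, 12.1 and 8.0 CPM in the normal libraries, on 232, 45 and 39 counts. Hyperplasia had 114, 95.2, 55.8, 68.5 and 124 CPM in libraries 21, 44, 22, 33 and 46. Adenoma ranged from 17.2 to 117 CPM with a median of 60.8, carcinoma from 40.7 to 178 with a median of 70.2, and metastasis from 15.9 to 138 with a median of 76.6. All tumour libraries but adenoma 36 (17.2 CPM) and metastasis 56 (15.9 CPM) were above the highest normal library, and the low libraries hyperplasia 22, adenoma 51 and metastasis 42, at 55.8, 76.8 and 78.9 CPM, did not stand apart. The log2 change of the tumour stages over normal was 2.53 ± 0.68 (SE; edgeR adjusted p = 0.0220). The call held in 36 of 40 alternatives and was lost without normal 28 (log2 2.47, adjusted p = 0.122), without normal 30 (2.27, adjusted p = 0.145), with detected genes as a covariate (2.65, adjusted p = 0.0964) and with limma voom (2.62, adjusted p = 0.146). The alternative that kept only the groups compared held all 32 libraries here and so repeated the main fit.

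**Figure D3:**
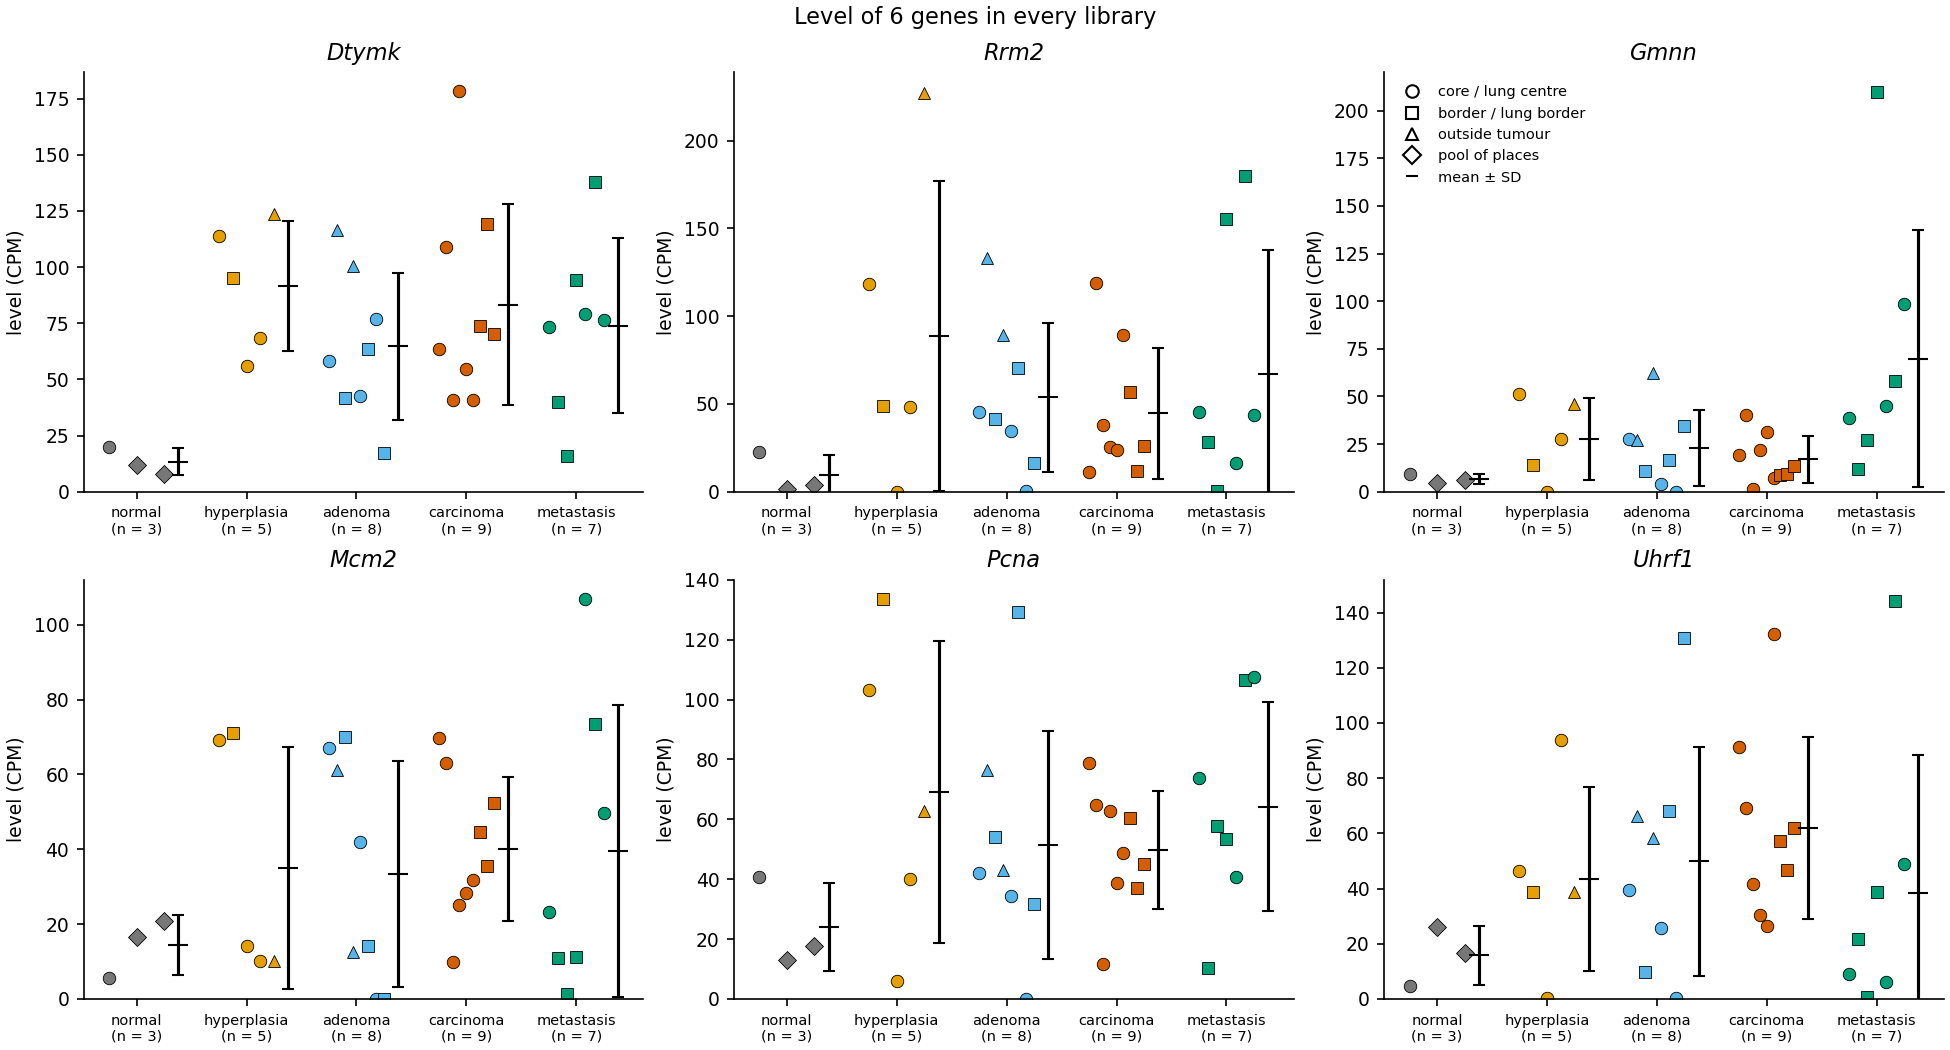
Level (CPM) of Dtymk, Rrm2, Gmnn, Mcm2, Pcna and Uhrf1 in each library by stage, with the mean and SD (bars stop at 0). Dtymk lies at 15.9 to 178 CPM in tumour stages and at 8.0 to 20.0 CPM in normal gland, while each of the other 5 genes overlaps more widely.

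Nucleotide supply was the role with the largest median, a log2 change of 1.63, with 3 of 4 members above 0 and 1 called. Rrm2, the small subunit of ribonucleotide reductase, which makes deoxyribonucleotides, had 22.8, 1.61 and 3.90 CPM in normal 18, 28 and 30. It had 118, 49.0, 0.114, 48.4 and 227 CPM in hyperplasia 21, 44, 22, 33 and 46. Adenoma ran from 0.285 to 133 CPM (median 43.2), carcinoma from 11.4 to 119 (median 25.9) and metastasis from 0.182 to 180 (median 43.5). Normal 18 was above many tumour libraries, and the 3 tumour libraries with few detected genes held 0.114, 0.285 and 16.5 CPM. Its log2 change was 2.69 ± 1.26 (SE; edgeR adjusted p = 0.286), and 4.48 without normal 18. Rrm1, the large subunit, averaged 70.1 CPM in tumour stages and 40.5 CPM in normal gland (log2 0.73 ± 0.76), a change that was 0.21 without normal 30 and 1.73 without normal 28. Tyms, thymidylate synthase, averaged 40.01 CPM in tumour stages and had 28.6, 120.5 and 20.9 CPM in normal 18, 28 and 30. Its log2 change of -0.49 ± 0.84 (SE) took the opposite sign, at 0.70, without normal 28, which held most of the normal mean of 56.7 CPM.

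Chromatin assembly and histone supply had a median log2 change of 1.60, with 6 of 7 members above 0 and none called. Uhrf1, which binds half-methylated DNA behind the fork, had 4.74, 26.1 and 16.6 CPM in normal libraries. It had 46.3, 38.6, 0.228, 93.8 and 38.7 CPM in hyperplasia 21, 44, 22, 33 and 46. The range was 0.285 to 131 CPM in adenoma (median 48.9), 26.6 to 132 in carcinoma (median 57.4) and 0.730 to 144 in metastasis (median 21.6). Carcinoma was the stage in which every library was above the normal ones. Nasp, a histone chaperone, averaged 52.8 CPM in tumour stages and 14.6 CPM in normal gland (log2 1.81 ± 0.91). Casp8ap2, which takes part in the making of histone mRNA and is singled out here after its values were seen, went the other way, with 27.03 CPM on average in tumour stages and 22.8, 175 and 39.4 CPM in normal libraries. Its log2 change was -1.79 ± 0.86 (SE; edgeR adjusted p = 0.308), which was -0.44 without normal 28, the library that made up most of the normal mean of 79.1 CPM.

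Licensing and helicase genes had a median log2 change of 0.99 with 10 of 11 above 0 and none called. Summed over Mcm2 to Mcm7, the level was 151 ± 41.9 CPM in normal and 297 ± 83.3 in hyperplasia libraries (mean ± SD). It was 295 ± 149 CPM in adenoma, 244 ± 80.2 in carcinoma and 252 ± 139 in metastasis libraries. The log2 changes of the 6 subunits of this ring lay between 0.01 ± 0.88 for Mcm7 and 2.46 ± 1.35 for Mcm4 (SE), and differences between subunits were not tested. Mcm2 had 5.52, 16.7 and 20.9 CPM in normal libraries and 69.3, 71.2, 14.1, 10.3 and 10.0 CPM in hyperplasia 21, 44, 22, 33 and 46. It ran from 0 to 70.1 CPM in adenoma (median 27.9), from 9.74 to 69.7 in carcinoma (median 35.6) and from 1.46 to 107 in metastasis (median 23.2). Mcm2 was thus low in both hyperplasia 33 and 46, whose summed levels over the 41 genes were high. Gmnn had 9.32, 4.57 and 5.95 CPM in normal libraries and 51.2, 14.04, 0, 27.4 and 46.2 CPM in the hyperplasia libraries, in the same order. It ran from 0 to 62.1 CPM in adenoma (median 22.1), from 1.39 to 40.2 in carcinoma (median 13.4) and from 12.0 to 210 in metastasis (median 45.1). Every metastasis library was above every normal library for this inhibitor of licensing, the 1 member of which this was so, against 0.754% of all genes. This carries no test here because that pair of stages was not compared.

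Fork and polymerase genes had a median log2 change of 0.65 with 8 of 10 above 0 and none called. Pcna, the sliding clamp, had 40.6, 13.2 and 17.9 CPM in normal libraries and 103, 133, 6.03, 40.2 and 62.9 CPM in hyperplasia 21, 44, 22, 33 and 46. It ran from 0 to 129 CPM in adenoma (median 42.6), from 11.8 to 78.8 in carcinoma (median 48.9) and from 10.4 to 107 in metastasis (median 57.9). Its log2 change of 1.28 ± 0.85 (SE) did not pass. Pola1, the catalytic subunit of polymerase alpha, averaged 12.8 CPM in tumour stages and had 9.92, 65.1 and 12.5 CPM in normal 18, 28 and 30. Its log2 change of -1.28 ± 1.19 (SE) was 0.10 without normal 28.

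Repair genes had a median log2 change of 0.84 with 6 of 7 above 0, and the regulators E2f8 and Dtl a median of 0.24 with both above 0; none was called. Usp1, which removes ubiquitin from Pcna and Fancd2, had 25.02, 8.61 and 23.0 CPM in normal libraries and 52.5, 75.7, 1.48, 9.22 and 1.40 CPM in hyperplasia 21, 44, 22, 33 and 46. It ran from 10.8 to 82.4 CPM in adenoma (median 31.2), from 6.26 to 81.6 in carcinoma (median 27.4) and from 6.21 to 143 in metastasis (median 30.0). Of the hyperplasia libraries, 21 and 44 were above the normal range and 22 and 46 below it. Dtl, the receptor of a ubiquitin ligase that destroys licensing factors on Pcna-bound DNA, had 6.47, 47.3 and 18.7 CPM in normal libraries and 12.3, 21.2, 0, 31.2 and 47.5 CPM in hyperplasia libraries, in the same order. It ran from 0.111 to 50.9 CPM in adenoma (median 24.6), from 1.69 to 119 in carcinoma (median 18.4) and from 0.594 to 121 in metastasis (median 13.4). The stage means of Dtl lay between 22.4 and 41.1 CPM, with 24.2 CPM in normal gland.

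**Figure D4:**
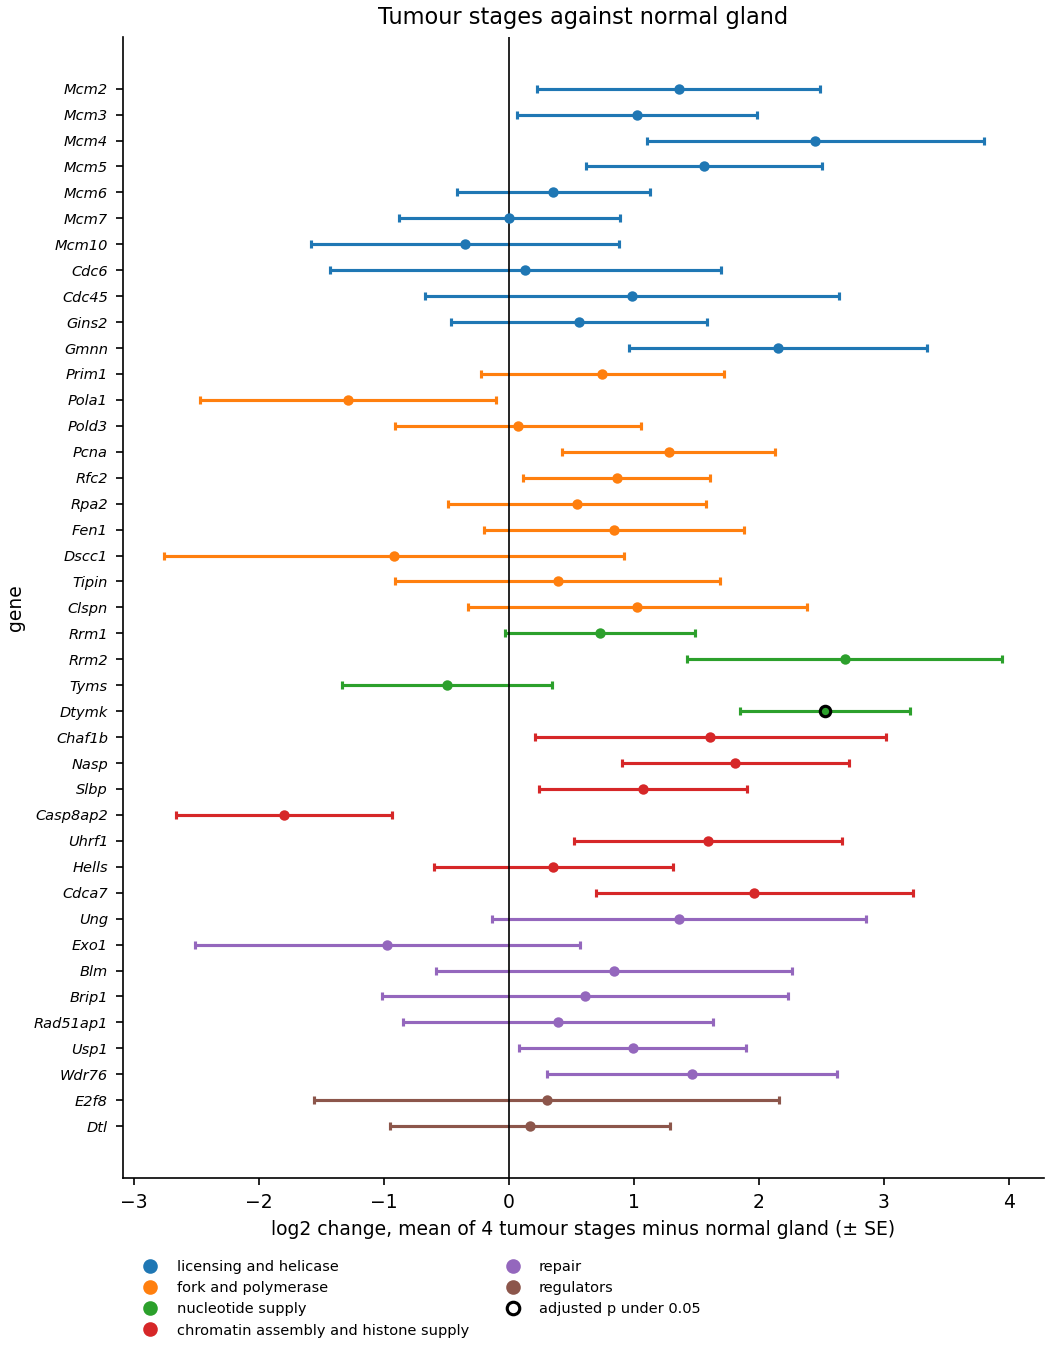
Log2 change of each of the 41 genes, tumour stages minus normal gland, with its SE, grouped by role. The ringed point, Dtymk at 2.53, is the one that passed at an adjusted p of 0.05, and 35 points lie above 0.

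Markers of other cells moved with this comparison. Fibroblast markers summed to 27.97 to 2564 CPM in tumour stages and to 752 to 3431 CPM in normal libraries, and adipocyte markers to 0 to 379 CPM in tumour stages and to 83.4 to 749 CPM in normal libraries. Lymphocyte markers summed to 0.856 to 704 CPM in tumour stages and to 91.5 to 985 CPM in normal libraries. Luminal markers summed to 1201 to 3936 CPM in tumour stages and to 999 to 1562 CPM in normal libraries. All 8 fibroblast, 7 adipocyte, 8 lymphocyte and 8 luminal markers were detected in normal gland. At 0 throughout were Dpt and Ms4a1 in hyperplasia, Cfd and Cd79a in adenoma, and Adipoq, Plin1, Cidec and Nkg7 in metastasis. Their part in the result was not tested.

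Hyperplasia against normal gland asks whether the change is present at the first stage of growth. None of the 41 members was called by edgeR (background 0.0%), and 3 had an unadjusted p under 0.05 against 12.4% of all genes. DESeq2 called 1 member, Dtymk, among 489 genes called in all, and voom called 0 members among 105 genes. The log2 change was above 0 for 31 members, against 49.5% of all genes, and the members' median was 0.79. Dtymk had the smallest p, with a log2 change of 2.77 ± 0.75 (SE; edgeR adjusted p = 0.282) and no overlap between hyperplasia and normal libraries, which 1.35% of all genes showed in this direction. Rrm2 had a log2 change of 3.22 ± 1.40 (SE; edgeR adjusted p = 0.332), and of 5.00 without normal 18. Casp8ap2 was the third, at 28.4, 6.23, 0.228, 9.01 and 25.7 CPM in hyperplasia 21, 44, 22, 33 and 46 and at 22.8, 175 and 39.4 CPM in normal libraries (log2 -2.50, edgeR adjusted p = 0.386; -1.15 without normal 28). With DESeq2 size factors the median of all genes fell to -0.35 and that of the members to 0.36.

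Carcinoma against normal gland called no member in edgeR (background 0.00502%). An unadjusted p under 0.05 was found for 1 member, against 8.17% of all genes. DESeq2 called 1 member, again Dtymk, among 177 genes called in all, and voom called 0 members among 316 genes. Dtymk had a log2 change of 2.63 ± 0.71 (SE; edgeR adjusted p = 0.186) and Rrm2 of 2.23 ± 1.26 (SE; edgeR adjusted p = 0.641), which was 4.01 without normal 18. Dtymk and Uhrf1 did not overlap between the carcinoma and normal libraries, as did 0.894% of all genes in this direction. The members' median was 0.37 with 29 above 0 (52.7% of all genes), against a median of 0.10 over all genes. DESeq2 size factors moved both down, to -0.10 for the members, with 18 above 0, and to -0.31 for all genes. The members' median was 0.20 without carcinoma 37 and 0.77 without normal 28. Hyperplasia, carcinoma and the pooled tumour stages were set against the same 3 normal libraries.

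Adenoma against hyperplasia showed no shift of the members as a group. edgeR called none (background 0.0%), none had an unadjusted p under 0.05 (14.8% of all genes had), and DESeq2 and voom called 0. The members' median was -0.05 with 19 above 0 (51.8% of all genes), and it was at or just above 0 without hyperplasia 21 (0.00) or 33 (0.22), without adenoma 24 (0.06), 25 (0.08), 36 (0.02) or 51 (0.05) and with detected genes as a covariate (0.10). Fen1, the flap endonuclease that trims Okazaki fragments, had the smallest p. It had 14.4 to 462 CPM in adenoma (median 37.4) and 33.5, 22.8, 0, 32.9 and 40.7 CPM in hyperplasia 21, 44, 22, 33 and 46. Adenoma 51, a library of few detected genes, alone held 462 CPM, and the log2 change of 1.91 ± 0.97 (SE; edgeR adjusted p = 0.352) was 0.83 without it. Exo1, an exonuclease of mismatch and break repair, had 0 to 5.29 CPM in adenoma (median 0.311) and 4.71, 0.244, 0, 56.5 and 0 CPM in the hyperplasia libraries. Its log2 change of -3.00 ± 1.59 (SE; edgeR adjusted p = 0.376) became 0.27 without hyperplasia 33.

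Carcinoma against adenoma had the lower values in carcinoma for most members in edgeR. The median was -0.35, and 12 of 41 members had a log2 change above 0 (50.6% of all genes). In voom the median was -0.03 with 20 above 0, against 0.27 over all genes. No member was called by edgeR (background 0.0%), 1 had an unadjusted p under 0.05 (12.6% of all genes), and DESeq2 and voom called 0. Fen1 had 4.12 to 51.8 CPM in carcinoma (median 35.0) and 14.4 to 462 CPM in adenoma, a log2 change of -1.72 ± 0.78 (SE; edgeR adjusted p = 0.325) that was -0.65 without adenoma 51. Clspn, the checkpoint adaptor claspin, had 0.232 to 33.3 CPM in carcinoma (median 3.00) and 0 to 114 CPM in adenoma (median 16.1). Its log2 change was -1.81 ± 1.003 (SE; edgeR adjusted p = 0.481), and -0.91 without adenoma 36.

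Metastasis against carcinoma had a members' median of 0.35 with 29 above 0 (49.5% of all genes), which was -0.03 in limma voom. edgeR called no member (background 0.0151%), 1 had an unadjusted p under 0.05 (10.9% of all genes), and DESeq2 and voom called 0. Gmnn had the smallest p, with 12.0 to 210 CPM in metastasis (median 45.1) and 1.39 to 40.2 CPM in carcinoma (median 13.4), so that the ranges overlapped. Its log2 change of 2.04 ± 0.82 (SE; edgeR adjusted p = 0.308) was 1.45 without metastasis 57, the library at 210 CPM. Clspn had 1.08 to 71.1 CPM in metastasis (median 18.7) and 0.232 to 33.3 CPM in carcinoma, a log2 change of 1.67 ± 1.02 (SE; edgeR adjusted p = 0.624). The lung epithelium markers that differ between these stages were at 381 to 4432 CPM in metastasis and at 0.0842 to 47.7 CPM in carcinoma, and their part in the result was not tested.

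Within adenoma, core regions lay below border regions for most of the 41 members. The summed level was 1011, 891 and 1127 CPM in the core (adenoma 24, 25 and 51) and 1696, 2000.4 and 1514 CPM at the border (adenoma 47, 48 and 36), without overlap. In adenoma 51, 5 genes (Fen1, Prim1, Slbp, Dtymk and Rfc2) made up 85.2% of the sum, 18 members were at 0 and the median member was at 0.571 CPM, against 14.4 to 43.1 CPM in the other 5 of these libraries. The 2 regions outside tumour, adenoma 34 and 50, held 1687 and 1681 CPM. The log2 change, core minus border, was below 0 for 32 of 41 members, with 9 above 0 (43.7% of all genes), and its median was -1.48, against 0.00 over all genes. Of the 53 other replication genes, 22 were above 0, with a median of -0.07, so that they lay close to the background. The 31 G2 and mitosis genes went the same way as the members, with 6 above 0 and a median of -0.62. None of these 31 was called by edgeR (background 0.0%), and 3 had an unadjusted p under 0.05 (9.45% of all genes had). All 6 roles had a median below 0, from -2.22 for repair to -0.95 for licensing and helicase. The members' median was -1.04 without adenoma 51, -0.81 without adenoma 47, -0.83 without adenoma 48 and -0.79 in voom.

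Single members did not carry this as a call. edgeR called none of the 41 (background 0.0%), none had an unadjusted p under 0.05 (9.45% of all genes had), and DESeq2 and voom called 0. Mcm3 had 19.7, 12.7 and 0.856 CPM in adenoma core and 20.8, 74.6 and 32.8 CPM at the border. Mcm5 had 34.2, 60.1 and 0.571 CPM in the core and 82.3, 134 and 135 CPM at the border. For these subunits of the ring the groups did not overlap, but adenoma 51 supplied the lowest value each time. Tyms had 29.1, 28.5 and 6.85 CPM in the core and 88.2, 52.9 and 68.2 CPM at the border. Rad51ap1 had 10.5, 8.17 and 0 CPM in the core and 50.05, 22.3 and 98.2 CPM at the border. These 4 members were the ones lower without overlap, as were 2.35% of all genes. Brip1, a helicase and partner of Brca1, had the smallest p with 9.33, 2.70 and 1.71 CPM in the core and 224, 1.77 and 0 CPM at the border. Its log2 change of -4.02 ± 2.03 (SE; edgeR adjusted p = 0.514) rested on adenoma 47 and was 2.36 without it. Rpa2, a subunit of the single-strand binding complex, had 10.7, 9.49 and 0 CPM in the core and 62.2, 4.54 and 49.0 CPM at the border (log2 -2.50 ± 1.34, edgeR adjusted p = 0.516). Dtymk went the other way, with 57.98, 42.7 and 76.8 CPM in the core and 41.9, 63.6 and 17.2 CPM at the border (log2 0.53 ± 0.84), a change that was 0.09 without adenoma 36.

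Fibroblast, basal and lymphocyte markers differed between border and core mainly through adenoma 36. Fibroblast markers summed to 27.97 to 165 CPM in adenoma core and to 76.2 to 1356 CPM at the border, basal markers to 2.57 to 52.2 CPM in the core and to 33.3 to 395 CPM at the border, and lymphocyte markers to 0.856 to 79.2 CPM in the core and to 2.65 to 704 CPM at the border. Luminal markers summed to 2184 to 2877 CPM in the core and to 1291 to 3256 CPM at the border. Adenoma 36 held the highest border value of each of these marker sums. Adenoma 47 and 48 held 111 and 76.2 CPM for fibroblast, 33.3 and 89.4 for basal, and 45.0 and 2.65 for lymphocyte markers. Macrophage markers differed through adenoma 48 as well. They summed to 115, 130 and 128 CPM in the core (adenoma 24, 25 and 51) and to 57.2, 367 and 370 CPM at the border (adenoma 47, 48 and 36). The part of these cells in the result was not tested.

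Within carcinoma the order of core and border was not that of adenoma. The summed level was 819.8 to 1546 CPM in the core (median 1169.8, n = 6) and 1135, 853 and 1066 CPM at the border, with overlap. The log2 change, core minus border, was above 0 for 30 members (55.1% of all genes), with a median of 0.26 against 0.15 over all genes. No member was called by edgeR (background 0.0%), none had an unadjusted p under 0.05 (5.63% of all genes had), and DESeq2 and voom called 0. Dtl had 3.24 to 119 CPM in the core (median 22.9) and 7.25, 1.69 and 14.3 CPM at the border, a log2 change of 2.18 ± 1.39 (SE; edgeR adjusted p = 0.838) that was 1.24 without carcinoma 6, the library at 119 CPM. Tyms had 5.80 to 69.04 CPM in the core (median 44.07) and 28.6, 18.01 and 8.17 CPM at the border (log2 1.10 ± 1.09, edgeR adjusted p = 1).

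The difference between these position effects, carcinoma core over border minus adenoma core over border, was above 0 for 34 members (53.4% of all genes), with a median of 1.63 against 0.21 over all genes. It was largest for repair, with a median of 3.26, and the members' median was 0.65 in voom. In edgeR no member was called (background 0.0%), none had an unadjusted p under 0.05 (8.77% of all genes had), and DESeq2 and voom called 0. Casp8ap2 had the smallest p, with a difference of 3.36 ± 1.89 on the log2 scale (SE; edgeR adjusted p = 0.647; 5.54 without adenoma 25), followed by Tyms with 2.79 ± 1.65 (SE; edgeR adjusted p = 0.677).

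Among metastases, the lung border held both the lowest and the highest summed levels. They were 705, 753, 2226 and 2015 CPM at the border (metastasis 40, 56, 57 and 58) and 1205, 1024 and 1373 CPM in the centre (metastasis 2, 42 and 27). The members' median log2 change, border minus centre, was 0.34 with 23 above 0 (56.8% of all genes), against 0.30 over all genes, and it was below 0 in voom (-0.22), without metastasis 57 (-0.27) and without metastasis 58 (-0.07). No member was called by edgeR (background 0.0%) or voom, and 1 had an unadjusted p under 0.05 in edgeR (8.71% of all genes had). DESeq2 called 1 member, Brip1, among 744 genes called in all. Brip1 had 7.42, 117, 0.366 and 11.2 CPM at the border and 0.689, 0 and 0.742 CPM in the centre, a log2 change of 6.02 ± 2.21 (SE; edgeR adjusted p = 0.558) against 6.28 in DESeq2 (adjusted p = 0.0116). Without metastasis 56, the library at 117 CPM, the edgeR change was 3.61. Pola1 had 0.601, 0.547, 0.366 and 9.05 CPM at the border and 18.3, 0.270 and 42.6 CPM in the centre (log2 -2.94 ± 1.75, edgeR adjusted p = 0.577), a change that was -1.82 without metastasis 27 and -5.32 without metastasis 58.

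A pair of genes separated the lung sites without overlap, in opposite directions. Wdr76 had 22.8, 20.6, 13.1 and 41.4 CPM at the border and 6.14, 8.92 and 5.05 CPM in the centre, as 1.62% of all genes did in this direction. Gins2, part of the active helicase, had 5.21, 9.31, 5.67 and 13.9 CPM at the border and 18.01, 45.1 and 29.8 CPM in the centre, as 1.31% of all genes did. Neither passed the test. Lung epithelium markers summed to 381 to 3897 CPM at the border and to 788 to 4432 CPM in the centre, and endothelial markers to 23.0 to 73.9 CPM at the border and to 71.5 to 287 CPM in the centre. Their part in these values was not tested.

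The members varied together from library to library. After the stage mean was taken off each gene's log2(CPM + 1), a member's level correlated with the mean of the other 40 with a median Pearson r of 0.44 and Spearman rho of 0.35 over the 32 libraries. The other 19866 tested genes had a median r of 0.10 and rho of 0.08 with the mean of the members. Without the 3 libraries of few detected genes, the members' median r was 0.29 and rho 0.25 over 29 libraries, and that of the other genes 0.01 for both. The likeness was not particular to the members. Of the other genes, 8.45% had a rho above the members' median over 32 libraries, and 13.7% over 29. Mcm4 followed the rest most closely (rho 0.72), with Cdca7 at 0.71, Rrm2 at 0.70 and Gmnn at 0.66. Clspn (-0.02), Pold3 (0.00) and Mcm10 (0.02) did not follow them. All these values share libraries, depth and the total to which counts were scaled, and regions may share animals.

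The likeness reached the genes of the next phases of the cycle. The summed level of the 41 genes and that of 31 G2 and mitosis genes, both stage-centred, had an r of 0.94 and rho of 0.91 over 32 libraries, and 0.87 and 0.88 over 29. With the log2 total of 53 other replication genes (origin recognition, ligase, further polymerase and clamp loader subunits and the like) the r was 0.93 and rho 0.87, which were 0.82 and 0.77 over 29. Between the members' log2 total and the number of detected genes the r was 0.56 and rho 0.35 over 32 libraries, and 0.09 and 0.12 over 29. Taken singly, the G2 and mitosis genes had a median rho of 0.45 with the log2 total of the members (0.37 over 29). The other replication genes had a median rho of 0.29 with it (from -0.29 to 0.67), or 0.21 over 29. The ratio of the summed CPM of the G2 and mitosis genes to that of the S phase genes was 0.81 ± 0.05 in normal and 1.09 ± 0.28 in hyperplasia libraries (mean ± SD). It was 1.03 ± 0.20 in adenoma, 0.94 ± 0.19 in carcinoma and 1.15 ± 0.26 in metastasis libraries. Its range was 0.76 to 0.86 in the 3 normal libraries, within the range of adenoma (0.68 to 1.31) and carcinoma (0.66 to 1.23). Hyperplasia (0.856 to 1.55) met the normal range only through hyperplasia 33, and every metastasis library (0.895 to 1.69) was above it. The ratio was not tested.

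**Figure D5:**
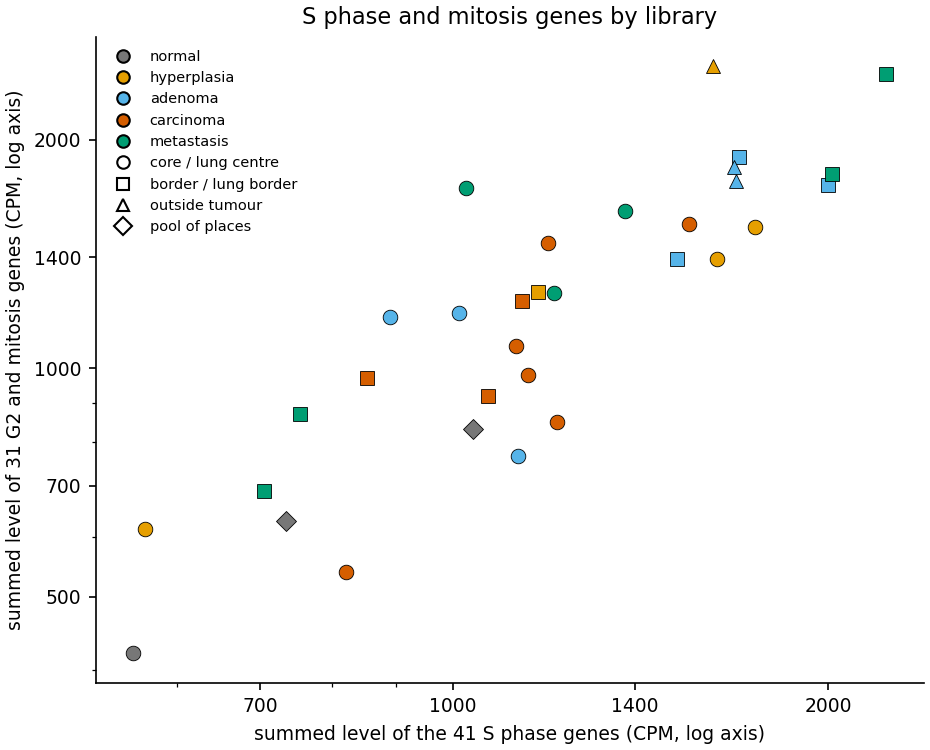
Summed level of the 41 S phase genes (CPM, log axis) against that of 31 G2 and mitosis genes (CPM, log axis), 1 point per library, coloured by stage. The points lie along 1 band from normal 18 (554 and 421 CPM) to metastasis 57 (2226 and 2439.7 CPM).

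Of the 53 other replication genes, edgeR called 0 in the tumour stages against normal gland (4.41% of all genes were called). An unadjusted p under 0.05 was found for 4 (15.0% of all genes). The log2 change was above 0 for 35 (50.5% of all genes), with a median of 0.49. DESeq2 called 1 of the 53, Lig1, the ligase of Okazaki fragments, among 190 genes called in all. In voom 0 of the 53 were called. The edgeR log2 change of Lig1, named after its values were seen, was 2.42 ± 0.78 (SE; adjusted p = 0.0674). Across the other 9 comparisons edgeR called none of the 53, with 1 to 6 at an unadjusted p under 0.05 in each. Of all genes, 5.63 to 14.8% had such a p. DESeq2 called 0 to 2 of the 53, among 177 to 1143 genes called in all, and voom 0. Of the 31 G2 and mitosis genes, 24 were above 0 in the tumour stages against normal gland, with a median of 1.19. An unadjusted p under 0.05 was found for 7 (15.0% of all genes), and 1 was called as higher (0.0754% of all genes). It was Ube2c, the ubiquitin-conjugating enzyme of the anaphase-promoting complex, with a log2 change of 2.93 ± 0.66 (SE; edgeR adjusted p = 0.00907). DESeq2 called 4 of the 31, among the same 190 genes, and voom 0. Mki67, the Ki-67 antigen of cycling cells, had stage means of 61.3, 193, 155, 120 and 117 CPM, in the order normal to metastasis. Its log2 change over normal was 1.23 ± 0.62 (SE; edgeR adjusted p = 0.344). Top2a, the topoisomerase that untangles replicated DNA, had stage means of 57.5, 108, 113, 98.5 and 156 CPM, with a log2 change of 1.03 ± 0.61 (SE; edgeR adjusted p = 0.450).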

How the data were processed

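RNA of 32 laser-captured regions was made into cDNA by Geo-seq with Smart-seq2 chemistry and Nextera XT, without molecular identifiers, per the labels' protocols. The deposited table holds raw whole-number read counts per gene ID. The aligner was STAR and the build mm10, per the submitters' processing notes. The labels name the count table after QuasR, and its version, annotation and strand setting were not given in the sources used here. Symbols and positions came from RefSeq GRCm38.p6, in which 24374 of 24454 IDs were found, and 0 columns were left unused.

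Samples were grouped by the labels' stage, or stage and site. Counts were filtered with filterByExpr (19907 genes by stage, 22676 by site), scaled by TMM and tested two-sided with the edgeR quasi-likelihood model, with 1 term per group over all libraries, at a Benjamini-Hochberg adjusted p of 0.05. All 41 members passed the filter in both fits. CPM use TMM effective library sizes. A log2 change is the later stage minus the earlier, tumour minus normal, core minus border, or lung border minus lung centre, and its SE is its size divided by the square root of F. Depth, a median total of 8753096 counts, and a common dispersion of 2.64 (stage) or 2.32 (site) limit the precision. No sequencing batch is in the labels.

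The members and lists were chosen with earlier results of these data known. All members are described by level. In each comparison the 2 of smallest p and every member past 0.05 are given with their statistics. A further 8 members (those of smallest p over the stages, the most abundant per kb of each role, Mcm2, Pcna and Rrm2) were to be given in more detail. For these, the text gives each normal and hyperplasia library, and the range and median of the other stages. Of other lists, Mki67, Top2a and genes past 0.05 were to be named. Alternatives were DESeq2 size factors, the DESeq2 Wald test, limma voom with sample weights, no filter, only the groups compared, detected genes as a covariate, removal of 3 libraries under 11000 detected genes, of the gene ID of highest share and of each library in turn, and pseudocounts of 0.5 and 5. Those for the difference of position effects were added after the data were seen. In a test on simulated data edgeR recovered large planted changes and made false calls above the nominal rate in some comparisons. R 4.3.3, edgeR 4.0.16, limma 3.58.1, DESeq2 1.42.0, Python 3.11.15, pandas 2.3.3, numpy 2.4.6, scipy 1.17.1, matplotlib 3.10.9 and Biopython 1.88 were used.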

Additional observations from a re-analysis of the deposited data

Results flagged for a closer look

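Of 168 groups of 5 to 9 libraries (each of the 41 genes, and their sum, in each of 4 stages, on log2(CPM + 1)), 25 (14.9%) had a highest or lowest library whose gap to the nearest other was large for the group's range by Dixon's criterion, where chance gives about 1 in 20. Hyperplasia 22, which had 10258 detected genes, stood lowest for Mcm3, Fen1, Cdca7 and Ung (0 CPM each), Mcm7 and Rrm2 (0.114 CPM each), Nasp and Uhrf1 (0.228 CPM each) and Rfc2 (0.341 CPM). Adenoma 51, with 10769 detected genes, stood lowest for Mcm7, Pcna and Chaf1b (0 CPM each), Rrm2 (0.285 CPM), Mcm5 (0.571 CPM) and Tyms (6.85 CPM). Metastasis 42, with 10383 detected genes, stood lowest for Fen1 (0.270 CPM). These 3 libraries account for 9, 6 and 1 of the 25. Whether their few detected genes set these values was not tested.

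The other flags fell on libraries with more detected genes. Adenoma 47 stood highest for Brip1 (224 CPM) and Wdr76 (104 CPM), and adenoma 48 lowest for Dtl (0.111 CPM). Carcinoma 53 stood lowest for Pcna (11.8 CPM) and carcinoma 39 for Rfc2 (6.36 CPM). Metastasis 40 stood lowest for Prim1 (1.20 CPM) and Pcna (10.4 CPM), metastasis 56 lowest for Chaf1b (0.183 CPM) and metastasis 58 highest for Dscc1 (5.49 CPM).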

How the results depend on the processing

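Of 430 alternatives to the named genes' tests, 420 kept direction and side of the threshold, 4 lost a call, 3 gained one and 3 changed sign. Only Dtymk in tumour stages over normal was called in the main fit, so no other named test had a call to lose. Most alternatives removed a single library, so the 420 are a weak measure of stability. With a library left out, Exo1 in adenoma over hyperplasia ran from -3.62 to 0.27 (without hyperplasia 33) and Brip1 in adenoma core over border from -5.06 to 2.36 (without adenoma 47), which was 1.47 with voom. Members called were 1 with the DESeq2 Wald test in hyperplasia and in carcinoma over normal (Dtymk, adjusted p = 0.00187 and 0.00340) and in lung border over centre (Brip1), against 0 in edgeR. In tumour stages over normal the count was 0 with detected genes as a covariate and with voom, and 0 to 1 with a library left out, lost without normal 28 or 30. The causes were not tested.

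Counts over all genes moved with the tool, the filter and the covariate. In hyperplasia over normal (0 in edgeR) they were 1 with only the groups compared, 489 with the DESeq2 Wald test and 105 with voom. In adenoma over hyperplasia (0) they were 609 with DESeq2 and 2 with voom, and in carcinoma over adenoma (0) 168 with the covariate, 265 with DESeq2 and 7 with voom. In metastasis over carcinoma (3) they were 5 without the filter, 186 with DESeq2 and 19 with voom. In carcinoma over normal (1) they were 2 without the filter, with DESeq2 size factors and without the 3 libraries of few detected genes, 7 with only the groups compared, 0 with the covariate, 177 with DESeq2 and 316 with voom. In tumour stages over normal (877) they were 2014 without the filter, 1327 with size factors, 36 with the covariate and 190 with DESeq2. In carcinoma core over border (0) they were 314 with DESeq2 and 5 with voom, in adenoma core over border (0) 2 without the filter, 1143 with DESeq2 and 35 with voom, and in lung border over centre (0) 1, 744 and 12 under the same settings. The difference of position effects (0) had 4 without the filter, 704 with DESeq2 and 1 with voom. With a library left out, counts ran from 546 (without normal 28) to 1179 in tumour stages over normal, from 0 (without normal 18) to 1 in carcinoma over normal, from 0 to 1 in carcinoma over adenoma and in carcinoma and adenoma core over border, and from 0 to 2 in the difference of position effects.

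The normal summed level was 1052 CPM with DESeq2 size factors (775 with TMM), and the median within-stage SD of members was 1.11 with log2(CPM + 5) (1.63 with a pseudocount of 1). No paired analysis was possible because each library number occurs once and is shared by no other group. With 3 normal libraries, a within-stage SD near 1.63 on the log2 scale and counts of 0 for many members, changes of a few fold could not be told from library spread.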
